A study of Mus musculus with 54 samples.

Results

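Testes of second-generation (F2) male mice whose fathers belonged to the dose 1 group were compared with testes of F2 males from control parents, 3 RNA-seq libraries (A, B and C) against 3, of 54 libraries in the whole study. The comparison was defined by the cross given in the labels, and every gene counted was eligible. The fathers were first-generation (F1) animals that, from 8.5 days post-coitum, were raised on drinking water with ibuprofen (IBU, 11.3 ng/L), 2-hydroxyibuprofen (2hIBU, 90 ng/L), diclofenac (DCF, 22.5 ng/L) and ethinyl-estradiol (EE2, 2.25 ng/L). The mothers of both F2 groups, and the fathers of the control group, came from control animals given 0.001% ethanol. The F2 males carry the treatment label None and, per the protocol, were killed at 10 weeks. The labels name no strain, and nothing in them says which F2 males shared a litter or a father, so p-values measure the spread between these samples only. In the cross codes the father was taken to stand before the mother, as in the sample titles. Further libraries compared here were F2 testes from dose 1 mothers and from dose 2 fathers (113, 225, 112 and 45 ng/L of the same compounds). F2 ovaries of the same cross, killed at 8 weeks, and F1 testes of the dose 1 and control groups, killed at 10 weeks, were also compared. The remaining groups, F1 at dose 2 and F2 from dose 2 mothers or from both parents at dose 2, entered shared fits and are cited for levels.

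The testis holds seminiferous tubules, in which spermatogonia enter meiosis as spermatocytes and mature as spermatids beside Sertoli cells, and an interstitium with Leydig cells, macrophages and vessels. Leydig cells import cholesterol and turn it into testosterone, with StAR moving it into mitochondria and a chain of cytochrome P450 and hydroxysteroid dehydrogenase enzymes completing the conversion. Because germ cells give most of the RNA, interstitial genes are a small part of a whole-testis library.

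The 6 libraries held 31835494 to 40462794 counts. Levels are in CPM, counts scaled to the size of each library. The protamine gene Prm1 (2095 to 2549 CPM), the germ cell helicase Ddx4 (447 to 546 CPM) and the Leydig hormone Insl3 (58.3 to 99.6 CPM) were high in all 6, and of 13 epididymal markers 8 stayed under 0.1 CPM in all 6. Library B of the control group stood apart from C of that group (mean chi-square per gene 36.4, against 8.64 for A and C). Among the libraries from dose 1 fathers this value was 4.14 to 18.1, so no pair was a duplicate.

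Of 19241 genes tested, 764 (3.97%) passed an adjusted p of 0.05 by edgeR's quasi-likelihood test with Benjamini-Hochberg adjustment. In offspring of dose 1 fathers 427 (2.22%) were higher and 337 (1.75%) lower. The changes were mostly small. The median size of a called change was 0.63 on the log2 scale, 343 called genes changed under 1.5-fold, and 198 changed at least 2-fold (116 higher, 82 lower). In 754 of the 764 the libraries of the groups did not overlap, which held for 23% of all genes tested. At an unadjusted p under 0.05 there were 3541 genes, where 962 would be expected with no difference. The count depended on single libraries: it was 224, 1595 and 285 without control library A, B or C, and 247 and 271 without dose 1 father library B or C.

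**Figure D1:**
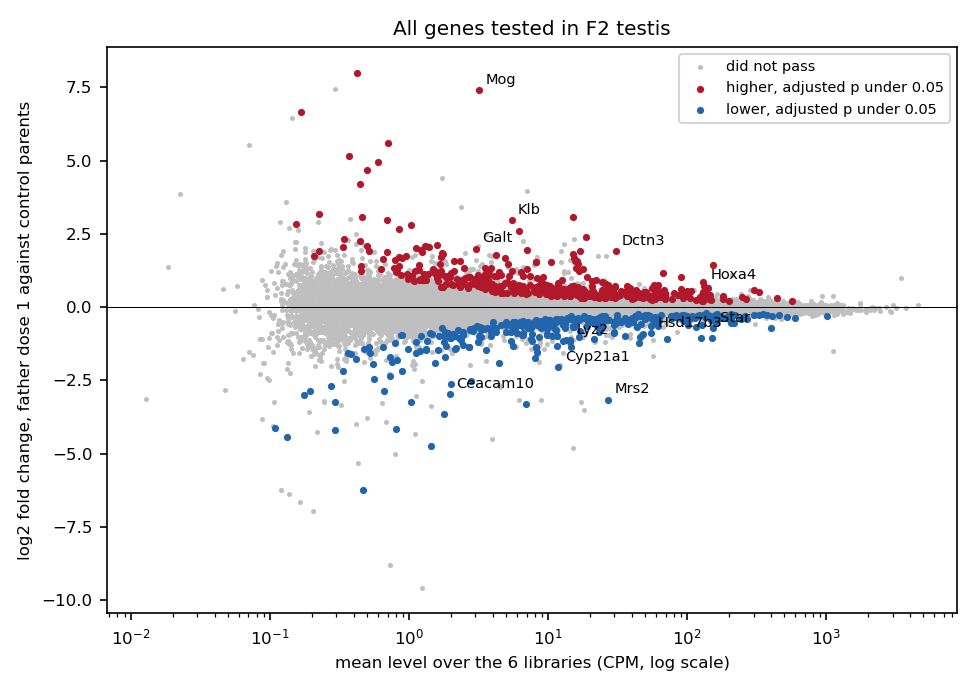
Each point is a gene tested in F2 testis: the x axis is its mean level over the 6 libraries (CPM, log scale) and the y axis its log2 fold change, offspring of dose 1 fathers against control parents. Red and blue points passed the adjusted p of 0.05 (427 higher, 337 lower); Mog and Mrs2 lie far from the other labelled genes of their level.

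Genes are ranked by size of change among those that passed, averaged at least 1 CPM over the 6 libraries, did not overlap between groups and had no predicted name; some genes under 1 CPM or with predicted names changed more. Within these limits the largest increase was in Mog, which encodes myelin oligodendrocyte glycoprotein, a surface protein of the myelin sheath in the central nervous system. Its level was 4.43, 6.96 and 7.75 CPM in libraries A, B and C from dose 1 fathers and 0, 0.0246 and 0.0755 CPM in those from control parents. All 3 exposed-father libraries were thus far above all 3 controls, and no other testis group of the study reached 1 CPM. The raw counts were 691 against 4 in all, a ratio of 188 after scaling for depth (95% interval 73.0 to 691, counting error only). The log2 fold change was 7.42 ± 0.58 (SE) with an adjusted p of 9.52e-07 by edgeR. Of 9 myelin genes tested, Mog alone passed (11.1%, against 3.97% of all genes). The list's median log2 fold change was 0.01, against −0.01 over all genes. Mog had no count in the 6 F2 ovary libraries of the same comparison, where a count of 0 allows up to 3 counts. The RefSeq window around its start (GRCm38.p6, chr17:37023349-37023648, minus strand), running from 250 bases before to 50 after the start, is shown because this gene had almost no transcript in any other group. Sequences here read 5′ to 3′ along the gene's strand, and capitals mark CG dinucleotides, the sites of DNA methylation in mammals.
Mog: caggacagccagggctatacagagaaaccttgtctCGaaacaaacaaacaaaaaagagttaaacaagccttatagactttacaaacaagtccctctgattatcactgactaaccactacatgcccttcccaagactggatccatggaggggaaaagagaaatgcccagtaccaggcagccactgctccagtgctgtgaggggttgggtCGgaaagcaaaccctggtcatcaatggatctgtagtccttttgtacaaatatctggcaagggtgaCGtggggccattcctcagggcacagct
It holds 3 CG dinucleotides, fewer than the median of 7 in the 32851 windows of the table, of which 23.3% held fewer than 3.

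Within the same limits the largest decrease was in Mrs2, which encodes a magnesium channel of the inner mitochondrial membrane. Its level was 3.77, 4.63 and 8.06 CPM in the offspring of dose 1 fathers and 49.3, 47.9 and 47.8 CPM in controls. The controls were nearly equal and every library from a dose 1 father was far below them (log2 fold change −3.16 ± 0.21, adjusted p 9.52e-07 by edgeR). Across the 9 testis groups, a similarly low level stood in a single other library, F1 dose 1 library A at 3.28 CPM, whose companions B and C were at 47.3 and 49.0 CPM. Groups at dose 2 of F1 (26.5 to 28.4 CPM) and F2 from both parents at dose 2 (25.0 to 29.0 CPM) lay between. In F2 ovary Mrs2 was 24.4, 37.1 and 31.1 CPM against 33.2, 40.1 and 39.1 CPM and did not pass (log2 difference −0.27, unadjusted p 0.241).

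Beyond Mog, the largest increases within these limits were in Klb, Faim2, Apol7e, Galt, Dctn3, Ifi204, Ccl21b, Il11ra1, Speer4c, Wfdc8 and Rpp25l, with log2 fold changes from 2.97 down to 1.55. Klb encodes beta-klotho, the co-receptor for the hormone FGF21. It was 10.7, 9.27 and 9.17 CPM against 1.5, 0.739 and 1.48 CPM (log2 fold change 2.97 ± 0.32, adjusted p 0.000135 by edgeR). Here the control group was the low one, since offspring of dose 1 mothers had 9.79 to 17.0 CPM, and F1 libraries ranged from 0.961 to 20.2 CPM. Its call was lost when all 27 testis libraries shared the fit. The ligand gene Fgf21 was 2.19, 1.77 and 2.38 CPM against 1.42, 1.26 and 0.730 CPM and passed too, with 0.89 ± 0.24 and an adjusted p of 0.0442. Its call was lost without any single library other than control B. In a list of 7 genes that holds beta-klotho, FGF receptors and Fgf21, these 2 rose (28.6%, against 2.22% of all genes). The other 5 did not pass, all with values below 0 (lowest −0.21). The list was chosen with earlier results of these data known, so its share is a description only.

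Faim2, a membrane inhibitor of Fas-induced cell death, was 2.49, 1.87 and 1.98 CPM against 0.501, 0.369 and 0.604 CPM, and rose by 2.10 ± 0.40. Ifi204, of the interferon-activated DNA sensor family, was 1.72, 2.09 and 2.10 CPM against 0.474, 0.616 and 0.478 CPM. For both, all libraries from dose 1 fathers lay above all controls. The call of Ifi204 was lost without dose 1 father library B or C or control library A or C. Speer4c, Apol7e and Ifi204 belong to families of close copies, so their counts are uncertain.

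The decreases that followed Mrs2 within these limits were in Ceacam10, Ptprt, Cyp21a1, Klk1b27, Grap, Aqp2, Fetub, Pcsk2, Wnk2, Fcgr2b and Tacr2, from −2.95 to −1.39. Ceacam10, of the carcinoembryonic antigen cell adhesion family, was 0.468, 0.348 and 0.525 CPM against 3.74, 3.37 and 3.27 CPM (log2 fold change −2.95 ± 0.38, adjusted p 0.000257 by edgeR). It was also low in F1 controls (0.404 to 0.666 CPM) and offspring of dose 1 mothers (0.538 to 0.882 CPM), and high in offspring of dose 2 mothers (2.43 to 4.83 CPM). Aqp2, a water channel best known from the kidney's collecting duct, was 4.63, 3.54 and 4.81 CPM against 14.4, 8.72 and 14.1 CPM. Pcsk2, a prohormone-cleaving enzyme, was 2.12, 1.69 and 1.88 CPM against 4.74, 6.45 and 4.43 CPM. Both fell in all libraries relative to all controls, by 1.53 and 1.46 on the log2 scale. The calls of Ptprt, Klk1b27 and Grap were each lost without 5 of the 6 libraries in turn, control B being the exception.

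Some genes set the offspring of dose 1 fathers apart from other F2 testes too. Against offspring of dose 1 mothers, 223 genes (1.16%) passed, 98 (0.509%) higher and 125 (0.65%) lower. Against offspring of dose 2 fathers, 321 (1.67%) passed, 131 (0.681%) higher and 190 (0.987%) lower. In all, 60 genes (22 higher, 38 lower) passed in both and against control in 1 direction. The libraries from dose 1 fathers enter all 3 comparisons, so the count is a description. Against dose 1 mothers, 79 and 106 genes passed without dose 1 father library B or C, and 89 and 115 without dose 1 mother library A or C. Against dose 2 fathers, 196, 83 and 92 passed without dose 1 father library A, B or C, and 101 and 76 without dose 2 father library A or B.

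Mog and Mrs2 were among the 60, at log2 differences of 6.75 ± 0.55 and −3.07 ± 0.21 against dose 1 mothers, and 5.89 ± 0.50 and −2.91 ± 0.21 against dose 2 fathers. Acyp2, an acylphosphatase, was 10.1, 13.2 and 13.5 CPM against 4.11, 4.46 and 4.05 CPM in controls, 5.01 to 5.69 CPM with dose 1 mothers and 4.23 to 5.75 CPM with dose 2 fathers. Its 3 libraries lay above all 15 other F2 testis libraries (log2 fold change against control 1.53 ± 0.18, adjusted p 0.000135 by edgeR). F1 dose 1 library A, the one low in Mrs2, had 15.7 CPM, against 5.33 and 6.74 CPM in B and C. Hoxa4, a homeobox gene known from germ cells, was 183, 156 and 157 CPM against 93.3, 110 and 93.4 CPM, and offspring of both parents at dose 2 had 150 to 179 CPM. Its call was lost with all 27 libraries in the fit. Abcf1, a translation factor in the MHC region, rose by 0.40 ± 0.07 against control and was 0.78 and 0.69 higher than in the other groups.

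Galm, the galactose mutarotase, was 27.6, 25.1 and 28.5 CPM against 63.5, 69.9 and 56.5 CPM in controls. It fell by 1.23 ± 0.16 against control, by 1.11 against dose 1 mothers and by 1.00 against dose 2 fathers. Glb1, the lysosomal beta-galactosidase, was 8.66, 8.46 and 8.95 CPM against 17.7, 25.3 and 16.6 CPM. The libraries from dose 1 fathers were close together and about as far below each comparison group, with differences of −1.20, −0.98 and −1.07. Susd5 (−1.14, −1.30, −1.41), the coagulation factor XIII subunit F13a1 (−0.91, −0.63, −0.63), the serine protease Prss45 (−1.02, −0.72, −0.88), the actin-capping regulator Carmil1 (−0.97, −0.93, −0.69), the phosphatase inhibitor Ppp1r1c (−0.77, −1.01, −1.0) and Lyz2 (−1.12, −0.94, −0.79) fell in the same order of comparisons. The calls of Carmil1 with all 27 libraries in the fit and of Ppp1r1c without dose 1 father library B were lost.

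**Figure D2:**
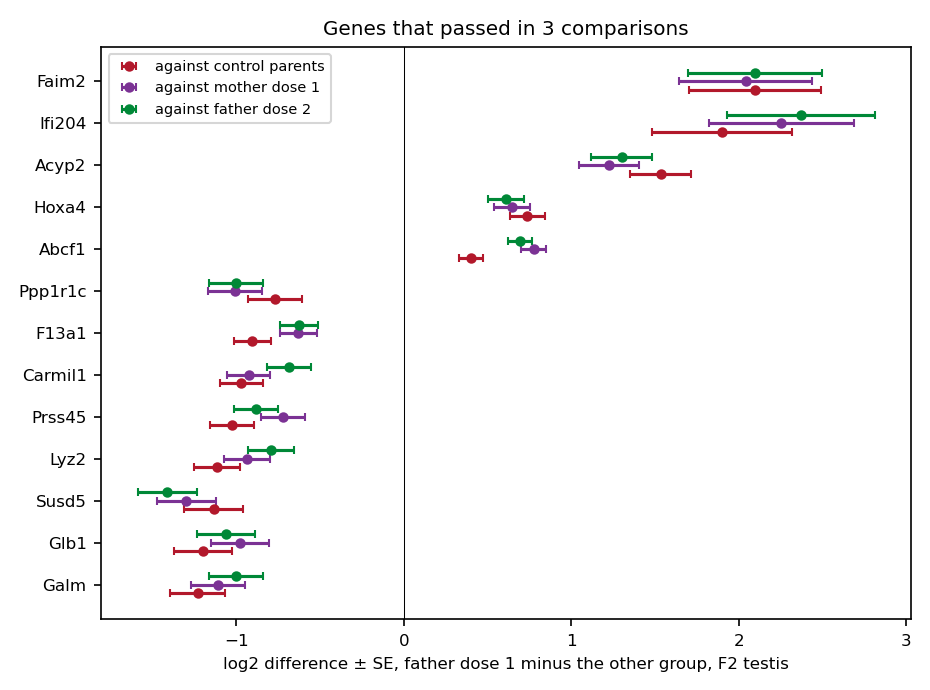
Points are log2 differences of offspring of dose 1 fathers from control parents (red), dose 1 mothers (purple) and dose 2 fathers (green) in F2 testis, with bars of ± 1 SE, for 13 genes; Mog and Mrs2 are left out because they exceed the axis. Each gene's differences lie on 1 side of 0, from Faim2 at 2.10 to Galm at −1.23 against control.

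**Figure D3:**
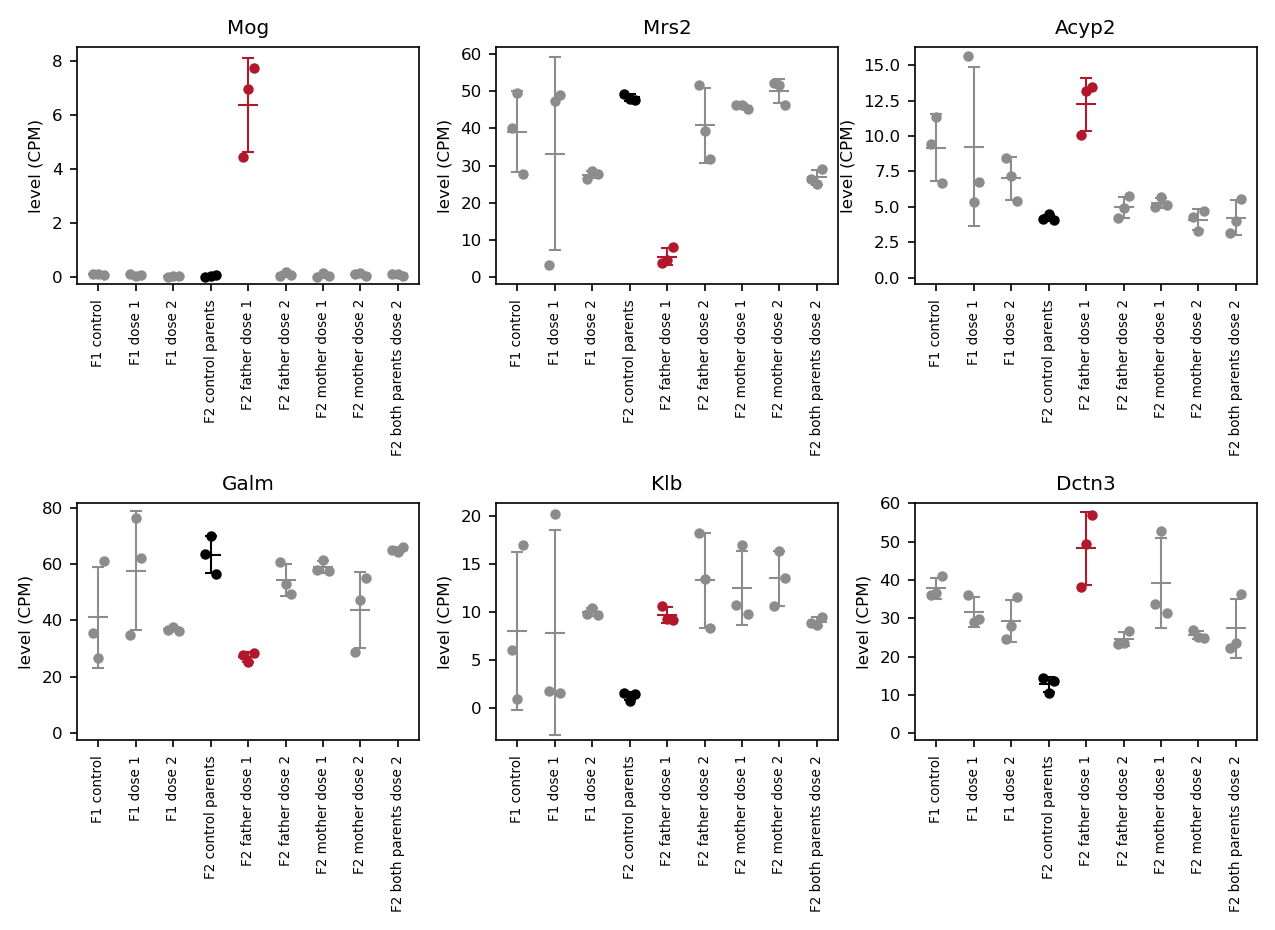
Levels (CPM) of 6 genes in the 9 testis groups: points are libraries A, B and C, and the horizontal mark with bars is the mean ± SD (n = 3). Mog is high and Mrs2 low in the dose 1 father group (red), while for Klb and Dctn3 the control parents' offspring (black) are the lowest group.

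Among genes of magnesium and galactose handling, 4 of 19 passed (21.1%, against 3.97% of all genes), 1 higher and 3 lower, with a median of −0.11. The list was chosen with earlier results of these data known, so this share is a description only. These were Galt, the galactose-1-phosphate uridylyltransferase, and Mrs2, Galm and Magt1. Magt1, a magnesium transporter that also serves protein glycosylation, was 6.74, 9.13 and 7.68 CPM against 15, 14.8 and 16.4 CPM. It fell by 0.97 ± 0.19, yet against dose 1 mothers its difference was −0.02 ± 0.19 and against dose 2 fathers −0.15 ± 0.19.

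Of the steroid synthesis genes, 6 of 13 tested were lower and none higher, against 1.75% lower among all genes, and the list's median was −0.38. In bulk tissue, fewer Leydig cells and less RNA per cell cannot be told apart. Star, which delivers cholesterol to mitochondria, was 115, 118 and 120 CPM in offspring of dose 1 fathers and 188, 186 and 200 CPM in controls. The groups were tight and well apart (log2 fold change −0.70 ± 0.11, adjusted p 0.0019 by edgeR). Hsd17b3, the enzyme of the last step to testosterone, was 29.9, 42.2 and 44.0 CPM against 70.6, 78.0 and 65.6 CPM, again with no overlap (−0.89 ± 0.17, adjusted p 0.00941). These 2 calls held without any single library. Cyp11a1, which cleaves the cholesterol side chain, was 156, 175 and 174 CPM against 235, 244 and 259 CPM. Cyp17a1, the next P450 of the chain, was 459, 554 and 552 CPM against 666, 724 and 641 CPM. Both groups were separate for each gene, but their calls (−0.55 and −0.38) were lost without any one of the 6 libraries. Scarb1, the lipoprotein receptor that supplies cholesterol, was 139, 135 and 134 CPM against 195, 172 and 186 CPM, a fall of 0.44 ± 0.10 that was lost without dose 1 father B or C or control A or C.

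Cyp21a1, the 21-hydroxylase known from the adrenal cortex, fell by 2.05 ± 0.52, from 19.8, 13.8 and 23.7 CPM to 3.54, 3.96 and 6.42 CPM. Its adjusted p was 0.0483 and was lost without any single library other than control B. Across groups it varied widely, from 7.57 to 43.9 CPM within the offspring of dose 2 fathers alone. Without each library in turn, 2 to 5 steroid synthesis genes passed: 3 and 2 without dose 1 father A or B, 2 without C, and 2, 5 and 2 without control A, B or C.

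Of 10 Leydig receptors and regulators, 2 were lower (20%, against 1.75% of all genes) and none higher (median −0.21). Prlr, the prolactin receptor, was 24.8, 37.4 and 37.9 CPM against 54.6, 57.7 and 47.5 CPM, and Nr0b1, a nuclear receptor that represses steroidogenic genes, was 12.0, 9.21 and 10.8 CPM against 13.9, 12.8 and 15.1 CPM. Prlr fell by 0.68 ± 0.14 and Nr0b1 by 0.39 ± 0.11, and both calls were lost without control library A. Insl3 did not pass, at 73.6, 76.1 and 81.4 CPM against 59.9, 58.3 and 99.6 CPM. The summed level of the 10 markers was 288 to 325 CPM in offspring of dose 1 fathers and 356 to 380 CPM in controls, none under 0.1 CPM, and its part in the steroid result was not tested.

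Against dose 1 mothers 1 steroid gene was lower and none higher (list median −0.25), and all 6 of the genes above had values below 0. Against dose 2 fathers 2 were lower and 1 higher (median 0.02), and the signs were mixed. For comparison, 0.65% and 0.987% of all genes were lower in these comparisons. Star was lower than with dose 1 mothers (−0.62 ± 0.11, adjusted p 0.0079) and dose 2 fathers (−0.54 ± 0.11, adjusted p 0.0199). Hsd17b3 (−0.53 and −0.20), Scarb1 (−0.25 and −0.11), Cyp17a1 (−0.20 and 0.12) and Cyp11a1 (−0.15 and 0.08) did not pass against either. Cyp21a1 did not pass against dose 1 mothers (−1.24 ± 0.52) and was lower than with dose 2 fathers (−2.47 ± 0.53, adjusted p 0.0368 by edgeR). Fdxr, the ferredoxin reductase that passes electrons to mitochondrial P450 enzymes, was higher than with dose 2 fathers (0.45 ± 0.11, adjusted p 0.0401 by edgeR). Hsd17b3 in the control parents' offspring was higher than in all other F2 testis libraries, which had 29.9 to 59.3 CPM.

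The RefSeq window of Hsd17b3 (GRCm38.p6, chr13:64089152-64089451, minus strand) is shown as that of the largest fall among steroid and Leydig genes with an entry, with CG dinucleotides in capitals.
Hsd17b3: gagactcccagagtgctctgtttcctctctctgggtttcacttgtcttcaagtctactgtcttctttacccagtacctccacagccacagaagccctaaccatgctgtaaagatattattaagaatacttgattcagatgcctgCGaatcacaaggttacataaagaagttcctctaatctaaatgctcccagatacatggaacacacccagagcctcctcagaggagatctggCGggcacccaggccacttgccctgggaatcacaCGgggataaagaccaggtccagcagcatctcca
The motif AAGGTCA, the core of the site bound by Nr5a1, a nuclear receptor of steroidogenic cells, was searched on both strands. Of the 8 steroid and Leydig genes that fell, Cyp11a1, Hsd17b3, Prlr and Nr0b1 had entries, and 0 of their 7 windows held these letters. Of all 32851 windows of 300 bases, 1550 (4.72%) held them. So few windows cannot show whether these genes differ from that share, and other forms of the site were not searched.

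Macrophage genes were lower too: 7 of 23 passed (30.4%), all 7 lower, against 1.75% lower among all genes, with a median of −0.54, and 22 of the 23 had values below 0. Lyz2, the macrophage lysozyme, was 9.58, 8.94 and 8.89 CPM against 19.3, 20.9 and 19.1 CPM. The libraries within each group were close and the groups separate (−1.12 ± 0.14, adjusted p 0.000146 by edgeR). Lyz2 has a close copy, Lyz1, which also fell (−0.99, adjusted p 0.0243), so the counts of each are uncertain. Cx3cr1, the fractalkine receptor of resident macrophages, was 3.54, 3.67 and 2.90 CPM against 7.53, 8.62 and 6.32 CPM. Csf1r, the receptor for the macrophage growth factor, was 9.60, 8.22 and 7.50 CPM against 13.8, 12.4 and 15 CPM. Neither overlapped between groups, and they fell by 1.15 ± 0.19 and 0.70 ± 0.12. The protease Ctss, the folate receptor Folr2 and the lysosomal membrane gene Laptm5 fell by 0.78, 0.97 and 0.77. Adgre1, which encodes the F4/80 antigen, was 5.00, 4.45 and 4.60 CPM against 4.56, 5.12 and 4.88 CPM and did not pass. Against dose 1 mothers 2 macrophage genes were lower and 0 higher (median −0.47), and against dose 2 fathers also 2 and 0 (median −0.22). For comparison, 0.65% and 0.987% of all genes were lower there. Lyz2 passed in both and Ctss only against dose 1 mothers (−0.85). Cx3cr1 (−0.13 and −0.09), Csf1r (−0.43 and −0.23), Folr2 (−0.91 and −0.39) and Laptm5 (−0.29 and −0.22) passed in neither.

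The macrophage markers summed to 354 to 391 CPM in offspring of dose 1 fathers and 407 to 472 CPM in controls, with none under 0.1 CPM. Without dose 1 father library B or C, or control C, 3 macrophage genes passed, and without control A 4. Those of Lyz2, Cx3cr1 and Csf1r held without each library in turn. The Fc receptor Fcgr2b, found on B cells and macrophages, was 1.16, 1.5 and 0.802 CPM against 3.40, 2.12 and 3.83 CPM, and fell by 1.42 ± 0.29. No lymphocyte gene of 9 tested passed by edgeR or DESeq2 (median 0.18; 1 at an unadjusted p under 0.05). The MHC class II gene H2-Ab1 went the other way, with 16.4, 25.7 and 25.9 CPM against 8.17, 13.5 and 5.23 CPM (1.33 ± 0.33, adjusted p 0.0391 by edgeR). It was the 1 of 7 class II genes to pass (14.3%, against 3.97% of all genes). F1 control libraries spanned 6.80 to 41.4 CPM for it, and its call was lost without any single library other than dose 1 father A and control B.

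**Figure D4:**
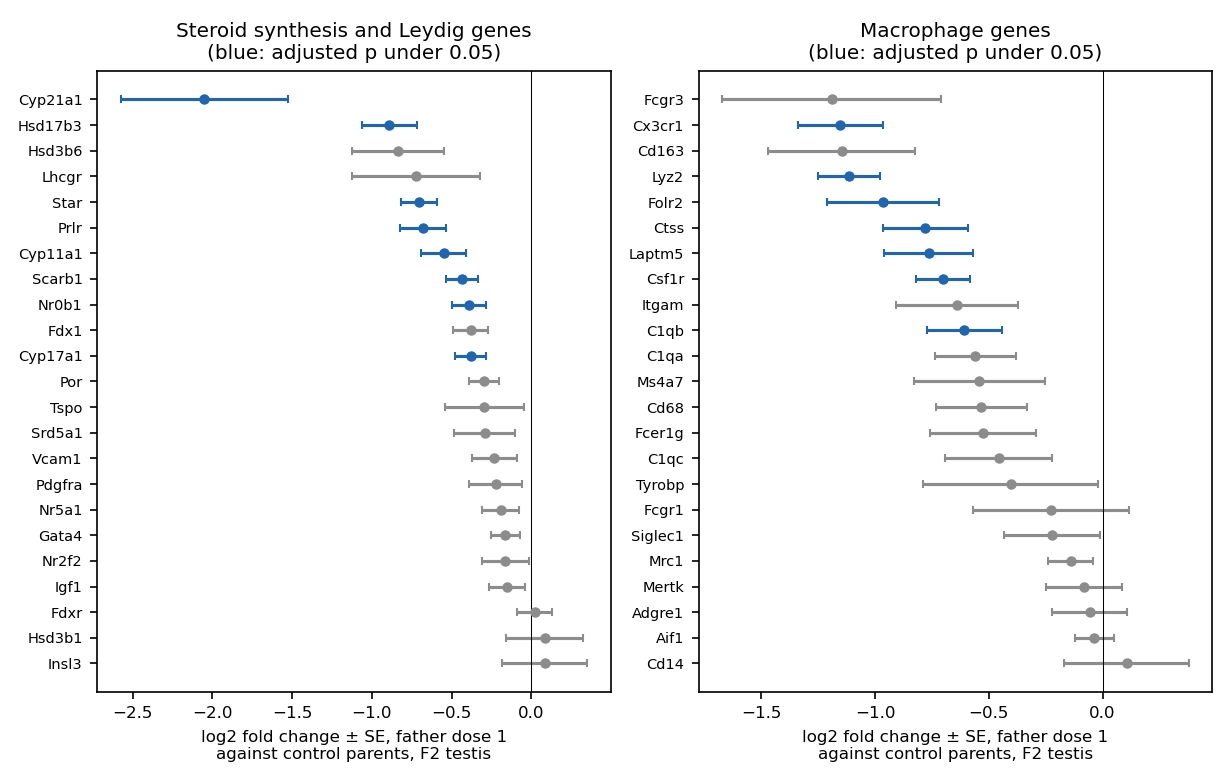
Log2 fold changes (x axis, ± 1 SE) of steroid synthesis and Leydig genes (left) and macrophage genes (right), offspring of dose 1 fathers against control parents in F2 testis; blue genes passed the adjusted p of 0.05. All blue genes lie below 0, from Cyp21a1 at −2.05 to Cyp17a1 at −0.38 on the left, while Insl3 and Cd14 lie just above it.

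In other somatic lists the share of genes called was near that of all genes (3.97%) or 0. In extracellular matrix, Nid1 (−0.47 ± 0.12) and Lum (−0.90 ± 0.23) fell among 34 genes (5.88%) with a median of −0.28. At an unadjusted p under 0.05 by edgeR, 11 of these 34 were lower and 2 higher, against 1801 and 1740 of all 19241 genes. Of 16 endothelial genes, Vwf fell by 0.54 ± 0.13 (6.25% of the list, median −0.23). By edgeR and DESeq2 none passed among 22 Sertoli genes (median 0.08; 1 at an unadjusted p under 0.05) and 14 peritubular and smooth muscle genes (median −0.18, all 14 below 0; 1 at that level). Of 8 adipocyte, 4 epididymal and 2 erythroid genes tested 0 passed by either tool, and 0 reached an unadjusted p of 0.05. Summed extracellular matrix levels were 869 to 953 CPM against 1039 to 1089 CPM, and endothelial levels 102 to 108 CPM against 116 to 129 CPM. Summed peritubular and smooth muscle levels were 481 to 505 CPM against 517 to 589 CPM. Sertoli levels overlapped, at 1604 to 1688 CPM against 1387 to 1830 CPM.

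In the 4 germ cell lists 6 of 103 genes passed (5.83%, against 3.97% of all genes). Of 22 spermatogonial genes Sohlh2, a transcription factor of differentiation, rose by 0.39 ± 0.10. Of 33 meiotic genes, Sycp1, which forms the transverse filaments of the synaptonemal complex, was 137, 181 and 161 CPM against 94.9, 130 and 105 CPM, and Hormad1, a chromosome axis protein, was 105, 107 and 102 CPM against 77.5, 97.0 and 73.7 CPM. Both rose, by 0.53 ± 0.12 and 0.33 ± 0.08, while Piwil1, which binds small RNAs in spermatocytes, fell by 0.26 ± 0.07 from 499, 483 and 505 CPM to 427, 410 and 409 CPM. The meiotic median was 0.12. Of 24 round spermatid genes the kinase Tssk5 rose by 0.55 ± 0.11, and of 24 elongating spermatid genes Tekt5, a sperm tail protein, fell by 0.33 ± 0.08. Calls in these lists were lost without control library C in each case. The summed meiotic level was 4053 to 4208 CPM against 3894 to 4105 CPM, so the groups overlapped.

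Of 39 genes of lipid storage and beta-oxidation, 1 rose and 4 fell (2.56% and 10.3%, against 2.22% and 1.75% of all genes), with a median of −0.16. Cd36, a fatty acid receptor, was 22.8, 19.2 and 20.6 CPM against 35.2, 47.8 and 33.0 CPM, a fall of 0.89 ± 0.15 that held without any single library. The lipase Mgll (−0.41), the acyl-CoA dehydrogenases Acadm (−0.39) and Acadl (−0.35) also fell, and Etfb, an electron carrier of this pathway, rose by 0.58. Fdps (−0.31) was the 1 of 26 cholesterol genes to pass (3.85%, against 3.97% of all genes). In antioxidant genes, Gpx1 (−0.43) and Sod3 (−0.51) fell of 35 tested (5.71%).

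In 2 lists close to the actions of the compounds given to the fathers, 1 gene each passed, 5% and 9.09% of the genes tested, against 3.97% of all genes. Ibuprofen and diclofenac block prostaglandin synthesis, and of 20 genes for prostaglandin synthesis and receptors the receptor Ptger1 passed, at 1.16, 1.23 and 1.02 CPM against 0.422, 0.714 and 0.327 CPM (1.21 ± 0.30, adjusted p 0.0303). The list's median was −0.20. At an unadjusted p under 0.05 by edgeR, 5 of the 20 were lower and 1 higher. Their summed level was 466 to 479 CPM against 538 to 555 CPM in controls. Ethinyl-estradiol acts on oestrogen receptors, and of 11 receptor and responsive genes the receptor Esr1 fell, from 7.90, 9.65 and 8.58 CPM to 4.55, 6.86 and 6.14 CPM (−0.58 ± 0.16, adjusted p 0.0446). The Esr1 call was lost without any one of the 6 libraries, and that of Ptger1 without any but control B. Neither gene passed against dose 1 mothers (Esr1 0.06, Ptger1 −0.02) or against dose 2 fathers (Esr1 −0.25, Ptger1 0.43).

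Of 18 genes of DNA methylation and demethylation, 1 passed (5.56%, against 3.97% of all genes). This was Zfp57, a zinc finger protein that protects imprinted methylation, at 27.8, 18.2 and 18.7 CPM against 38.5, 36.9 and 39.6 CPM. All 3 libraries from dose 1 fathers were below all controls, with A nearest to them (−0.83 ± 0.13, adjusted p 0.00118 by edgeR). It was also lower than with dose 1 mothers (−0.57) and dose 2 fathers (−0.75), and passed in both. Among imprinted genes, Rasgrf1 fell by 0.46 ± 0.12, 1 of 19 expressed from the paternal allele (5.26%). Of 14 expressed from the maternal allele 0 passed by edgeR, with 3 at an unadjusted p under 0.05 and 1 called by DESeq2. The medians of these lists were 0.02 and −0.07. The clock-linked repressors Bhlhe40 (−0.93 ± 0.16) and Nfil3 (−0.78 ± 0.17) fell among 19 circadian genes (10.5%). Of 31 immediate early genes Egr1 alone passed (3.23%, near the share of all genes). It fell by 1.39 ± 0.27, from 13.9, 5.49 and 16.3 CPM to 4.70, 4.20 and 4.69 CPM, with control B close to the lower group. Hsf2 rose by 0.34 ± 0.08 of 22 heat shock genes (4.55%, near the share of all genes). By edgeR and DESeq2 no gene passed among 25 interferon-stimulated genes (2 at an unadjusted p under 0.05) and 85 cytosolic ribosomal protein genes (4 at that level).

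Called genes lay close to each other in gene order somewhat more often than tested genes at large: 440 of 764 (57.6%) had another called gene within 10 tested genes, against 50.9% of all genes. Windows with at least 6 called genes, a number chosen after the values were seen, formed 7 stretches, of which 3 consist largely of multi-copy genes and are uncertain. The counts carry no genotype, and whether the groups' parents differed in sequence or copy number at these stretches was not tested. One of the stretches runs from Myorg to Ccl21b on chromosome 4. Dctn3, a subunit of the dynactin complex of intracellular transport, was 38.2, 49.4 and 57.1 CPM against 14.3, 10.5 and 13.5 CPM. Galt was 3.91, 4.98 and 5.56 CPM against 1.29, 1.16 and 1.13 CPM. In both the groups stood well apart, and log2 fold changes were 1.91 ± 0.21 and 2.00 ± 0.22. Il11ra1, a receptor for interleukin 11, the chemokines Ccl27a and Ccl21b, and Rpp25l rose by 1.67, 1.45, 1.72 and 1.55. Arid3c (2.32 ± 0.58) and Cntfr (0.68 ± 0.12) rose as well, and Myorg at the far end fell by 0.32 ± 0.09.

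The control offspring were the low group in this stretch. Dctn3 was 22.2 to 57.1 CPM in all 24 other testis libraries, and 36.0 to 41.0 CPM in F1 controls. Against dose 1 mothers, neither Dctn3 (0.31 ± 0.20) nor Galt (0.61 ± 0.21) passed, and against dose 2 fathers Dctn3 (0.97 ± 0.21) and Galt (1.13 ± 0.21) were higher. Il11ra1, Ccl27a and Ccl21b have near-identical copies, and Il11ra2, Ccl27b, Ccl21a and Ccl21c were listed at 0 in all 27 testis libraries, so the counts of this stretch are uncertain as to copy. The windows of Dctn3 (chr4:41723114-41723413, minus strand) and Galt (chr4:41755267-41755566, plus strand; the first of 2 starts) from RefSeq on GRCm38.p6 are shown as those of the leading genes, with CG dinucleotides in capitals.
Dctn3: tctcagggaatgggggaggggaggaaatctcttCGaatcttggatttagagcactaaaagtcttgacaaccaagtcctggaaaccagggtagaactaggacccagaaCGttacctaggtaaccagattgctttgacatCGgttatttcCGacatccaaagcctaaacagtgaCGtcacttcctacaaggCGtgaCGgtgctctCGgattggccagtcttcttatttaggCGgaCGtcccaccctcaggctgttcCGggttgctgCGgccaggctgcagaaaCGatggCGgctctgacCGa
Galt: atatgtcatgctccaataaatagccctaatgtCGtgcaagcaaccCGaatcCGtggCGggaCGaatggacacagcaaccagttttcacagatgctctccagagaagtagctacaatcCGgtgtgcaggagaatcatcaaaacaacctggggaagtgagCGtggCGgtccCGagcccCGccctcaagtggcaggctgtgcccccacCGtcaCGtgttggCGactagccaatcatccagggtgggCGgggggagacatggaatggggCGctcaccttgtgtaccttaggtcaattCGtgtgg
They hold 15 and 16 CG dinucleotides, against a median of 7.

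In F2 ovary of the same cross, compared with its own controls, 0 of 17454 genes (0%) passed by edgeR, with 1681 (9.63%) at an unadjusted p under 0.05 and 82 called by DESeq2. Several genes of the Dctn3 stretch nevertheless ranked high there. Dctn3 was 78.8, 78.1 and 55.0 CPM in ovaries from dose 1 fathers and 32.4, 22.9 and 20.3 CPM in controls, the smallest p of the whole ovary comparison (log2 difference 1.49 ± 0.25, adjusted p 0.304 by edgeR and 2.49e-05 by DESeq2). Rpp25l, Galt and Ccl27a ranked 10, 14 and 19, with differences of 1.32, 1.20 and 1.14. DESeq2 called these 4 and Il11ra1 in ovary. As in testis, the control parents' offspring were the low group: Dctn3 was 33.3 to 92.5 CPM in all 24 other ovary libraries, with 55.2 to 92.5 CPM in offspring of dose 1 mothers, 41.9 to 53.2 CPM in those of dose 2 fathers and 39.0 to 72.9 CPM in F1 controls. Cntfr (−0.57) and Myorg (0.39) had the opposite sign to testis.

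**Figure D5:**
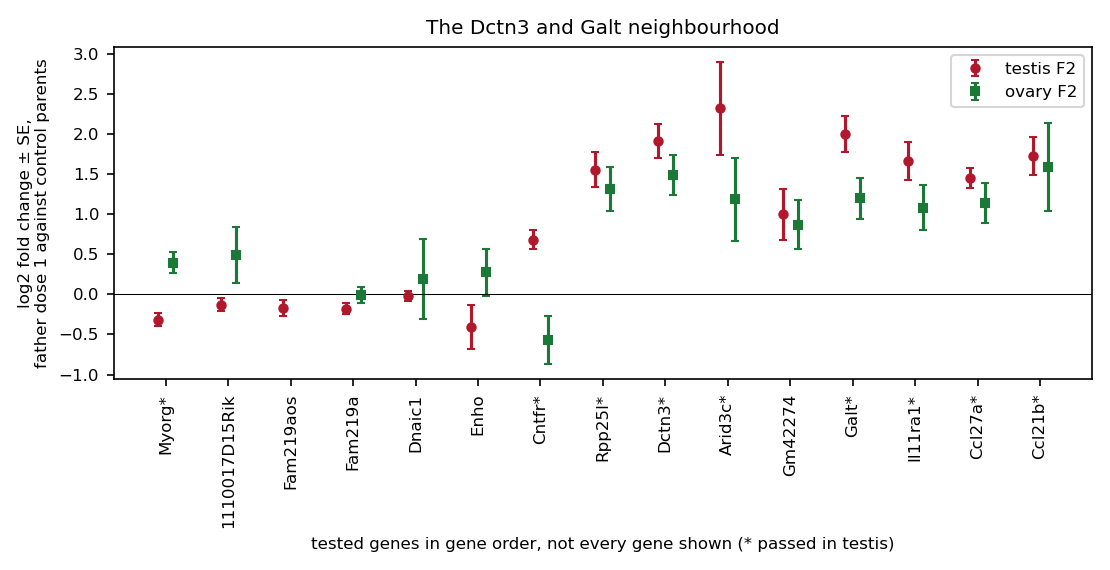
Log2 fold changes (± 1 SE) of offspring of dose 1 fathers against control parents for tested genes of the stretch in gene order, not every gene shown, in F2 testis (red) and F2 ovary (green); asterisks mark genes that passed in testis. For the genes shown from Rpp25l to Ccl21b both tissues are above 0, with testis values from 1.00 for the predicted gene Gm42274 to 2.32 for Arid3c, and to the left of Rpp25l the tissues differ in sign for most genes.

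A second stretch ran from Carmil1 to Mrs2, where 9 of 15 tested genes passed, 3 higher and 6 lower. Acot13, a mitochondrial thioesterase of this stretch, was 1.33, 1.47 and 1.42 CPM against 3.82, 3.30 and 3.20 CPM (−1.29 ± 0.18, adjusted p 0.000662), and Gmnn, the replication inhibitor geminin, rose by 0.38. In ovary 0 of the 7 of these that were tested reached an unadjusted p of 0.05 by edgeR. The ovary log2 difference of Acot13 was 0.10 (unadjusted p 0.388), of the opposite sign to testis. Another stretch, of 22 tested genes from Nrm to H2-T10 in the MHC region, held 7 calls (3 higher, 4 lower), among them Abcf1 (0.40), the tubulin acetyltransferase Atat1 (0.54) and the class I gene H2-T10 (−2.86), a member of a multi-copy family. A separate list of the MHC region covers only part of it and leaves out Abcf1, Atat1 and H2-T10. Of its 31 genes tested 3 passed (9.68%, against 3.97% of all genes). Mog and the GABA receptor subunit Gabbr1 (0.34 ± 0.09) rose and Cyp21a1 fell. A stretch from Gm30476 to Rasgrp3 had 7 of 18 called, 4 higher and 3 lower.

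Over all 764 called genes the ovary did not follow the testis. Of 567 tested in ovary, 50.4% had the same direction, against 49.1% of all genes, and 13.1% had an unadjusted p under 0.05, against 9.63%. These comparisons share no library. In F1 testis, where the animals themselves received dose 1, 6 genes (0.0317%) passed against F1 controls, 2 (0.0106%) higher and 4 (0.0211%) lower, with 1618 (8.55%) at an unadjusted p under 0.05. DESeq2 called 139 in F1, and by edgeR 315 passed without F1 dose 1 library A. Of the called F2 genes 759 were tested there, 60.3% in the same direction against 54.7% of all genes, and 11.5% at an unadjusted p under 0.05. Star was among these, at 110, 107 and 141 CPM in F1 dose 1 and 184, 165 and 229 CPM in F1 controls. Those groups did not overlap, and the log2 difference of −0.69 ± 0.13 (unadjusted p 0.00028, adjusted p 0.139 by edgeR) differed from that in F2 by −0.00 ± 0.18.

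The difference between the effect in F2 and that in F1 was tested directly, and 130 of 19467 genes (0.668%) passed. The effect was higher in F2 for 83 (0.426%) and lower for 47 (0.241%). Mog, Dctn3 and Galt were among the 83. The difference for Mrs2 (−2.92 ± 0.74) had an adjusted p of 0.0848, with the low F1 dose 1 library A in the F1 group.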

How the data were processed

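Stranded mRNA libraries were made from total RNA of testis and ovary, per the labels' protocols. Per the submitters' processing notes the build was mm39, and the tools included featureCounts 2.0.3, TopHat2 2.1.1, Bowtie2 2.4.5, SAMtools 1.13, DESeq2 1.32.0, FastQC 1.19 and bcl2fastq 2.20. The sources used here do not give the annotation, the strand setting or the treatment of multi-mapped reads. Values of antisense genes and of genes with close copies are uncertain for that reason. The authors deposited raw counts per gene, 26264 entries per tissue, of which 133 lack a gene ID and were kept by symbol.

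All fits used edgeR 4.0.16 (R 4.3.3, limma 3.58.1). The 18 F2 testis libraries shared a fit of edgeR's quasi-likelihood test (TMM factors, its expression filter at a count of at least 10, Benjamini-Hochberg adjustment, threshold 0.05). Ovary F2 and testis F1 had fits of their own, and the difference between generations used all 27 testis libraries. CPM values use TMM factors over the 27 libraries of a tissue, so ratios of printed CPM can differ slightly from fitted fold changes. The SE is the size of the log2 fold change divided by the square root of the quasi-F statistic. The steps were tested on simulated data. Alternatives were DESeq2 1.42.0, RLE factors, no filter, a replicate block, other libraries in the fit and each library left out.

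Genes that passed were ranked if they had a mean of at least 1 CPM over the 6 libraries, no predicted name and no overlap between groups. Of these the 12 largest changes each way were taken. Up to 15 genes that passed in 3 comparisons were added under the same limits of level and name. Up to 6 members of each list that passed were added without these limits. For the direct comparisons the first rule took 5 each way. Genes in dense stretches are named from gene order, after their values were seen. The comparison, the gene lists and the rules were chosen with earlier results of these data known. Gene order and promoter windows come from RefSeq tables of GRCm38.p6, which differs from mm39, so coordinates are given for the printed windows alone, on that build; 19235 of 19241 tested genes were placed. Results for 1 gene are not reported here; it remains in counts over all genes.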

Additional observations from a re-analysis of the deposited data

Results flagged for a closer look

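For 16 of the genes named above, the effect in F2 testis (dose 1 father against control parents) differed from the effect in F1 testis (dose 1 against control) by edgeR's quasi-likelihood test of the difference, over all 27 testis libraries. Values are log2 differences between these effects, F2 minus F1, with the adjusted p, and are not differences in level between generations.

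For genes of the Dctn3 stretch the effect was higher in F2: Galt by 2.26 (adjusted p 0.000187), Dctn3 by 2.18 (0.000238), Ccl27a by 1.62 (1.55e-05), Il11ra1 by 2.10 (0.00221) and Rpp25l by 1.60 (0.00816). In F1 their own log2 differences lay between −0.42 and −0.04. As given above, the F2 control offspring were the low group in this stretch. Mog was higher by 7.57 (0.000369); it was too low in F1 for a test there. Wfdc8 was higher by 1.75 (0.0299) and Abcf1 by 0.53 (0.0299).

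Ceacam10 differed by −5.19 (0.000199). It fell by 2.95 in F2, and in F1 its log2 difference was 2.25 with dose 1 library A at 0.688 CPM and B and C at 3.40 and 3.73 CPM. Acot13 differed by −1.33 (0.0133), Galm by −1.71 (0.0334), Cx3cr1 by −1.37 (0.0398), Cd36 by −1.16 (0.0432), Hsd17b3 by −1.12 (0.0286), Zfp57 by −1.02 (0.00648) and Sod3 by −0.60 (0.0432). Each of these 7 fell in F2 and had a value above 0 in F1, from 0.05 for Acot13 to 0.50 for Galm. For Galt, Ceacam10, Dctn3, Ccl27a, Acot13, Mog, Il11ra1, Zfp57 and Rpp25l the difference passed without any single library. For the other 7 it was lost when certain single libraries of either generation were left out, with adjusted p up to 0.123 (Cd36 without dose 1 father library B). Those for Cd36 and Sod3 were also lost with no low-count filter (0.0607 and 0.0524) and with the replicate number as a block (0.0612 and 0.0554), and that for Galm with no low-count filter (0.0530).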

How the results depend on the processing

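DESeq2 called 1264 genes in place of 764 against control parents, 507 in place of 223 against dose 1 mothers, 707 in place of 321 against dose 2 fathers, 82 in place of 0 in ovary, 139 in place of 6 in F1 and 331 in place of 130 for the difference between generations. With only the 6 libraries compared in the fit, 707 and 878 genes passed against dose 1 mothers and dose 2 fathers, and 743 against control. With no low-count filter 13 genes passed in F1. Leaving out each library in turn gave 224 to 1595 genes against control, 79 to 273 against dose 1 mothers, 76 to 347 against dose 2 fathers, 0 to 1 in ovary (1 without dose 1 father library C), 3 to 315 in F1 (315 without F1 dose 1 library A) and 63 to 204 for the difference between generations. Without control parents library C the lower genes outnumbered the higher, 149 to 136. With an arm of 2 libraries the spread was pooled over all groups in the fit. Of the 77 named genes called against control, 32 were called under every setting and 0 changed direction; 37 lost their call without control library A and 36 without C.

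The labels do not say whether replicate letters pair the samples, and the values do not settle it. Against control parents, deviations from the testis group means correlated at 0.05, 0.04 and 0.07 for letters A, B and C. Each library there correlated best with its own letter in 3 of 3 cases. In ovary the values were 0.15, 0.16 and −0.002, with 1 of 3 best with its own letter. With the replicate letter as a block, 809, 240, 342, 0, 5 and 136 genes passed in the comparisons of the paragraph above, in order. Of the 77 named genes 4 lost their call. Depth limits low genes most: control libraries held 4 reads of Mog in all.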

Other observations

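Several zinc finger genes varied widely among the control parents' offspring. Zfp990 was 18.5, 0.960 and 28.7 CPM in control libraries A, B and C and 1.5, 1.02 and 2.87 CPM in those from dose 1 fathers. Its relatives Zfp981 (9.64, 16.5 and 6.27 CPM), Zfp991 (16.5, 32.0 and 11.8 CPM) and Zfp992 (32.7, 49.3 and 23.6 CPM) were highest in control B, the library in which Zfp990 was lowest. In offspring of dose 1 fathers they were 13.3 to 14.0, 25.2 to 27.6 and 37.7 to 47.5 CPM. None of the 4 passed against control, whereas against dose 2 fathers Zfp981, Zfp991 and Zfp992 were higher by 4.23, 4.07 and 2.55 and Zfp990 was lower (−5.09), each with an adjusted p under 0.05 by edgeR. These genes belong to a family of close copies and their counts are uncertain.

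Phyhip, which encodes a protein that binds the peroxisomal phytanoyl-CoA hydroxylase, was 6.30, 16.5 and 0.679 CPM in the control libraries and 1.40, 1.10 and 1.02 CPM in offspring of dose 1 fathers. It did not pass against control (−2.74), and passed against dose 1 mothers (−4.18 ± 0.77, adjusted p 0.0216) and dose 2 fathers (−3.98 ± 0.77, adjusted p 0.026). The protocadherin Pcdh9 was 0.246, 0.241 and 0.494 CPM against 1.45, 1.21 and 1.74 CPM and fell in all 3 comparisons, by 2.18, 2.63 and 2.94. Mid1, a ubiquitin ligase at the border of the pseudoautosomal region, was 21.6, 24.2 and 22.1 CPM against 13.1, 8.72 and 16.4 CPM. It did not pass against control (0.82, adjusted p 0.0586) and was higher than with dose 1 mothers (1.88) and dose 2 fathers (1.56). Arfgef3 was lower than with dose 1 mothers alone among these comparisons, at −1.75, with −0.44 against control and 0.14 against dose 2 fathers.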
